A study of Arabidopsis thaliana with 6 samples.

Results

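Brassinosteroids are steroid hormones of plants that promote cell expansion and division. They are made from membrane sterols by a chain of reductases and cytochrome P450 enzymes. At the cell surface they are bound by the receptor kinase BRI1, which acts with coreceptors such as BAK1. The signal switches off the kinase BIN2, and the transcription factors BES1 and BZR1 then gather in the nucleus, where they raise growth genes and repress DWF4, CPD and other synthesis genes. In the shoot apex, low brassinosteroid activity marks the boundaries between meristem and organs, where BAS1 inactivates the hormone.

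The RNA of 10 brassinosteroid genes is described here, chosen by their gene identifiers: DWF4 (AT3G50660), CPD (AT5G05690), DET2 (AT2G38050), BR6OX2 (AT3G30180), ROT3 (AT4G36380), DWF1 (AT3G19820), BAS1 (AT2G26710), BRI1 (AT4G39400), BES1 (AT1G19350) and BZR1 (AT1G75080). All 10 were among the 17675 genes of the deposited table, and each had at least 1 read per 1000000 reads (RPM) in all 6 libraries. RNA-seq was done on inflorescences of 3-week-old Arabidopsis thaliana plants, trimmed of flowers past stage 6. All plants had the genotype ARF3:ARF3-GR arf3-29, so the controls carry the transgene and the mutant allele too. In ARF3-GR the auxin response factor ARF3, expressed from its own promoter as the name of the construct gives it, is joined to the steroid-binding part of the glucocorticoid receptor, which keeps the protein inactive until dexamethasone (DEX) is given. The 3 DEX libraries came from plants given 10 µM DEX in DMSO and the 3 DMSO libraries from plants given no DEX, all grown in days of 16 h light and 8 h dark at 23 °C. The wetting agent Silwet L-77 (0.015%) is named for the treatment. No control plants lacking ARF3-GR but given DEX were analysed here, so responses to DEX and to ARF3-GR cannot be told apart.

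Libraries held 10703769 to 14469527 reads of listed genes. DEX-3 stood apart: chi-square per degree of freedom was 10.5 and 11.99 between it and the other DEX libraries, against 2.80 to 4.31 for all other pairs within a group. All 8 markers of young flowers were present, and their summed level was 1086 to 1155 RPM in DMSO and 1067 to 1158 RPM in DEX. Of these, AP1, a floral meristem and sepal gene, was at 265 ± 14.7 RPM with DMSO and 253 ± 17.5 RPM with DEX, and PI, a petal and stamen gene, rose from 173 ± 6.16 to 268 ± 7.33 RPM (adjusted p = 1.3e-07, limma). The sum covers members that moved in opposite directions, since 2 of the 8 rose, PI and SEP3, and 3 fell. Over all genes, 29.6% rose and 28.1% fell (adjusted p under 0.05, limma). ANT, a gene of organ primordia, fell from 154 ± 6.94 to 90.9 ± 2.17 RPM (adjusted p = 4.69e-08, limma). The meristem gene STM went from 138 ± 7.87 down to 106 ± 17.9 RPM (adjusted p = 0.00285, limma), and AP3, a petal and stamen gene, from 192 ± 6.13 down to 165 ± 19.6 RPM (adjusted p = 0.0209, limma). ARF3 RNA (AT2G33860) fell from 248 ± 8.64 to 144 ± 4.14 RPM (adjusted p = 1.15e-08, limma), and its reads can come from the transgene or the mutant allele. Levels are given as mean ± SD with n = 3 libraries per group. Changes are log2 fold changes of RPM + 1, DEX minus DMSO, with p-values from limma, Benjamini-Hochberg (BH) adjusted over all genes.

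With DEX, RNA of the P450 synthesis enzymes CPD and BR6OX2 rose, and RNA of DWF1, ROT3, the receptor BRI1 and the transcription factors BES1 and BZR1 fell. DWF4, DET2 and the inactivating enzyme BAS1 did not pass the threshold of 0.05. Thus 2 of the 10 genes were called higher and 5 lower, where 57.7% of all genes were called, 29.6% higher and 28.1% lower. With so few genes, 7 calls of 10 lie near that background. The median log2 fold change of the 10 genes was -0.32, against 0.0035 over all genes. With edgeR and DESeq2, run on reads recovered from the RPM, the same 7 genes were called, where these tools called 57.4% and 54.8% of all genes. The groups did not overlap for the same 7 genes, as for 62.9% of all genes.

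**Figure D1:**
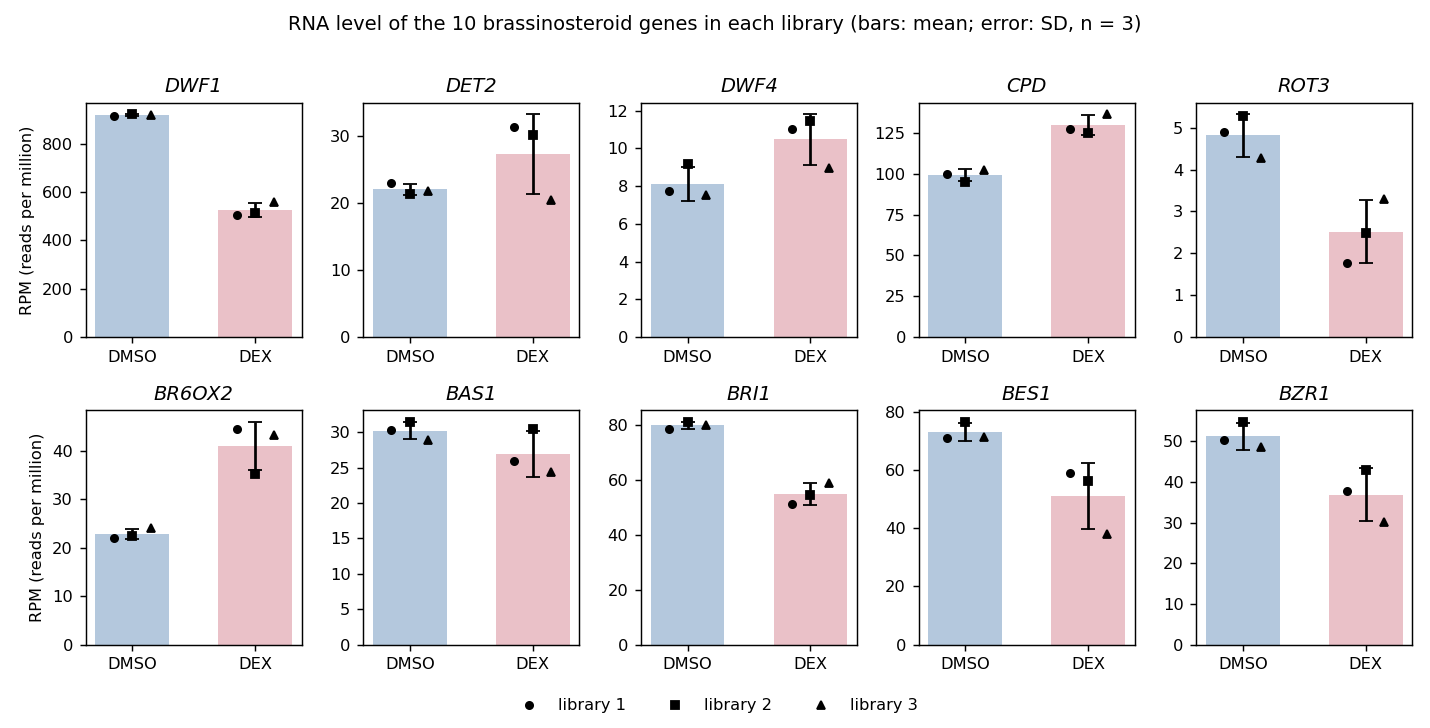
RNA level in RPM (vertical axis, from 0, a separate scale for each gene) of the 10 genes in DMSO and DEX. Bars are means, error bars are SD (n = 3) and symbols are the numbered libraries. The DEX points of CPD and BR6OX2 lie above all DMSO points and those of DWF1, ROT3, BRI1, BES1 and BZR1 below them, while DEX-3 is the lowest DEX point for DET2, DWF4, BAS1, BES1 and BZR1.

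Among the synthesis enzymes, DWF1 acts first and makes campesterol, the sterol from which the hormone is built. Its level was 915, 923 and 917 RPM in the DMSO libraries and 506, 513 and 558 RPM in the DEX libraries. The DMSO values were nearly equal, and every DEX value was far below them. DWF1 fell by 42.7%, a log2 change of -0.80 (SE 0.0570, 95% interval -0.93 to -0.68, adjusted p = 1.99e-09, limma). In absolute size this change exceeded that of 78.9% of all genes.

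DET2, a steroid reductase that acts early in the pathway proper, had 23.0, 21.3 and 21.9 RPM in DMSO. In DEX it had 31.4, 30.2 and 20.4 RPM. DEX-1 and DEX-2 were above every DMSO library and DEX-3 was below them all. The log2 difference of 0.27 (95% interval -0.02 to 0.56) did not pass the test (adjusted p = 0.0992, limma). Without DEX-3 DET2 was called higher, at 0.46 (adjusted p = 0.000424, limma), and without DEX-1 the difference was 0.17 (adjusted p = 0.358, limma).

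DWF4, the hydroxylase held to be rate-limiting, behaved in a like way at a lower level. It was at 7.72, 9.16 and 7.51 RPM in the DMSO and 11.02, 11.5 and 8.96 RPM in the DEX libraries. The groups overlapped, since DEX-3 lay under DMSO-2. The difference was 0.33 (95% interval 0.00042 to 0.66, adjusted p = 0.0805, limma). Once DEX-3 was left out it became 0.43 (adjusted p = 0.0324, limma). DWF4 rests on 95 to 166 reads per library.

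CPD, a P450 enzyme that acts after DWF4, was at 99.6, 95.1 and 103 RPM in the DMSO and 128, 125 and 137 RPM in the DEX libraries. Every DEX library was above every DMSO library, with DEX-3 the highest. CPD rose by a log2 change of 0.39 (SE 0.0696, 95% interval 0.24 to 0.53, adjusted p = 0.000146, limma). BR6OX2, which makes brassinolide in the last steps, was at 22.0, 22.4 and 24.0 RPM in the DMSO and 44.5, 35.3 and 43.4 RPM in the DEX libraries. Here too the groups were apart, with DEX-2 the lowest DEX library. BR6OX2 rose 1.80-fold in mean RPM, the greatest rise among the 10 genes (log2 change 0.82, SE 0.107, 95% interval 0.59 to 1.04, adjusted p = 4.84e-06, limma).

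ROT3, a P450 hydroxylase of the synthesis pathway named for the round leaves of its mutant, went the other way. Its level was 4.90, 5.28 and 4.27 RPM in DMSO and 1.78, 2.49 and 3.29 RPM in DEX. All DEX values were lower, with DEX-3 nearest to the DMSO group. ROT3 fell by 47.7% in mean RPM (log2 change -0.74, SE 0.207, 95% interval -1.18 to -0.31, adjusted p = 0.00540, limma). It had 54 to 72 reads per DMSO library and 19 to 47 per DEX library. The fold change depended on the pseudocount: with 5 RPM added it was -0.39, and edgeR gave -0.92.

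BAS1, the P450 enzyme that inactivates brassinosteroids, was at 30.3, 31.4 and 28.9 RPM in the DMSO and 25.9, 30.5 and 24.4 RPM in the DEX libraries. DEX-2 lay within the DMSO range and the other DEX libraries under it. The difference of -0.17 (95% interval -0.39 to 0.06) did not pass (adjusted p = 0.191, limma). It was -0.26 without DEX-2 and -0.10 without DEX-3.

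BRI1, the receptor, was at 78.4, 81.1 and 80.1 RPM in the DMSO and 51.1, 54.6 and 59.0 RPM in the DEX libraries. The DMSO libraries were close together, and all DEX libraries were lower. BRI1 fell by 31.3% (log2 change -0.53, SE 0.0795, 95% interval -0.70 to -0.37, adjusted p = 1.93e-05, limma).

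BES1 and BZR1 are close relatives that act at the end of the pathway. BES1 was at 70.9, 76.6 and 71.4 RPM in the DMSO and 58.9, 56.3 and 38.1 RPM in the DEX libraries. BZR1 was at 50.2, 54.8 and 48.5 RPM in the DMSO and 37.7, 43.0 and 30.0 RPM in the DEX libraries. For both, all DEX values were under the DMSO values and DEX-3 was the lowest. BES1 fell by a log2 change of -0.53 (SE 0.122, 95% interval -0.79 to -0.27, adjusted p = 0.00135, limma), or -0.34 without DEX-3 (adjusted p = 0.000172, limma). BZR1 fell by a log2 change of -0.47 (SE 0.113, 95% interval -0.71 to -0.24, adjusted p = 0.00167, limma). The ratio of BES1 to BZR1 reads within a library was 1.43 ± 0.0387 in DMSO and 1.38 ± 0.159 in DEX, ranging from 1.27 in DEX-3 to 1.56 in DEX-1. The exact two-sided permutation test of this ratio gave p = 0.7, where 0.1 is the smallest p that 3 against 3 libraries allow.

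Levels of different genes were compared per kb of exon, counting every annotated exon of a gene once. In DMSO the order from the top was DWF1 (341 ± 1.55 RPM per kb), CPD (51.4 ± 1.94), BES1 (29.9 ± 1.29), BZR1 (26.6 ± 1.70), DET2 (20.0 ± 0.772), BRI1 (18.3 ± 0.308), BAS1 (13.7 ± 0.571), BR6OX2 (11.9 ± 0.559), DWF4 (2.86 ± 0.316) and ROT3 (2.01 ± 0.213). In that group no neighbours in the order overlapped in range. In DEX, DWF1 (195 ± 10.5 RPM per kb) and CPD (67.3 ± 3.13) were again highest and DWF4 (3.69 ± 0.472) and ROT3 (1.05 ± 0.316) lowest. Between them the order of means was DET2 (24.8 ± 5.46 RPM per kb), BR6OX2 (21.5 ± 2.61), BES1 (21.0 ± 4.63), BZR1 (19.2 ± 3.39), BRI1 (12.5 ± 0.903) and BAS1 (12.2 ± 1.44). The ranges of the first 4 of these overlapped one another, as did those of BRI1 and BAS1. BR6OX2 was thus under BRI1 per kb in every DMSO library and above it in every DEX library.

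**Figure D2:**
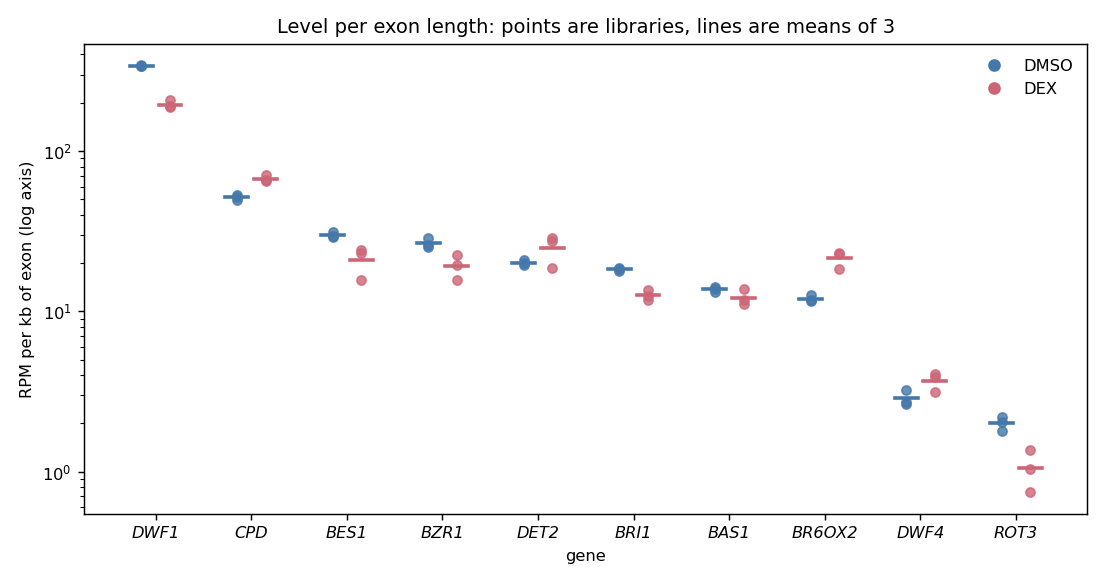
Level of the 10 genes in RPM per kb of exon (vertical log axis), ordered by the DMSO mean. Points are libraries and short lines are means of 3. DWF1 at 341 RPM per kb and ROT3 at 2.01 RPM per kb mark the ends of the DMSO order, and BR6OX2 moves from 11.9 to 21.5 RPM per kb.

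In the RefSeq annotation 6 of the 10 genes overlap another gene, 5 of them one on the opposite strand, and it is not given whether counting used strand. The listed partner of BZR1, AT1G75090, fell from 26.7 ± 3.13 to 9.36 ± 1.56 RPM, in the same direction as BZR1. A further partner of BZR1, AT1G09523, and the partner of ROT3, AT4G36370, were not in the table. The listed partner of CPD, AT5G05680, fell from 16.1 ± 0.848 to 11.6 ± 1.82 RPM, against the direction of CPD. The partners of DWF1 (AT3G19810), DET2 (AT2G38040) and BES1 (AT1G19360) did not pass, with log2 differences of 0.20, -0.08 and 0.04. A share of partner reads in the values of these genes was not tested. Other pathway genes given below overlap a gene too, among them BIN2 and BEH4 on the same strand. BIL1, BIL2, BRL3, SERK1, BAK1 and BIM2 are among those with a partner on the opposite strand. The partners of such genes were not looked at.

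Around these 10 genes, 55 others of the pathway were listed by role, and 41 of them were in the table. Of these, 12 were called higher and 18 lower, or 73.2% in all, where 57.7% of all genes were called. Their median log2 fold change was -0.13. The 14 others were not analysed here, among them BR6OX1 and CYP90D1, the synthesis enzymes closest to BR6OX2 and ROT3.

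Genes of sterol synthesis were mostly lower in DEX. Of 8 genes 6 were called lower and 1 higher, with a median of -0.58, against 28.1% and 29.6% of all genes. SMT2 (AT1G20330), a sterol methyltransferase, fell from 390 ± 10.4 to 244 ± 19.1 RPM (log2 change -0.68, adjusted p = 1.16e-07, limma). DWF7 (AT3G02580), a sterol desaturase, fell from 47.4 ± 1.33 to 30.3 ± 5.26 RPM, and CYP51A1 (AT1G11680), a sterol demethylase, from 134 ± 2.31 to 85.7 ± 4.27 RPM. DWF5 (AT1G50430), the reductase that acts just before DWF1, was the 1 that rose, from 117 ± 4.996 to 140 ± 0.804 RPM. SMT1 (AT5G13710) had 112 ± 2.52 and 113 ± 1.63 RPM and did not pass.

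Beside BAS1, 3 of 6 other inactivating enzymes were in the table, and 2 of them rose and 1 fell. All 3 were called, where 57.7% of all genes were. UGT73C5 (AT2G36800), which attaches glucose to brassinosteroids and to foreign compounds, rose from 29.3 ± 0.513 to 215 ± 6.87 RPM (log2 change 2.83, SE 0.0719, adjusted p = 2.43e-15, limma). UGT73C5 has close relatives in tandem, so the division of reads among them is uncertain. BEN1 (AT2G45400), a reductase-like protein, rose from 13.1 ± 2.62 to 22.6 ± 2.65 RPM. BAT1 (AT4G31910), an acyltransferase, fell from 41.6 ± 1.42 to 19.1 ± 0.369 RPM (log2 change -1.09). The other 3 of the 6 were not analysed here.

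Around BRI1, 2 of 7 receptors, coreceptors and inhibitors were called higher and 1 lower, with a median of 0.08. Of all genes, 29.6% were called higher and 28.1% lower. The coreceptor SERK4 (AT2G13790) rose from 10.8 ± 0.403 to 22.1 ± 2.30 RPM, and SERK1 (AT1G71830) fell from 24.7 ± 1.01 to 13.1 ± 1.51 RPM. BRL3 (AT3G13380), a receptor related to BRI1, rose from 4.89 ± 0.885 to 7.30 ± 0.456 RPM (adjusted p = 0.0209, limma). That call was lost without DEX-1 (adjusted p = 0.0552, limma) and without DMSO-3 (adjusted p = 0.0974, limma). BAK1 (AT4G33430) had 59.9 ± 7.43 and 63.5 ± 5.96 RPM, a difference of 0.08 (95% interval -0.12 to 0.29). BKI1 (AT5G42750), an inhibitor of BRI1, had 5.98 and 5.94 RPM in DEX-1 and DEX-2 and 3.08 RPM in DEX-3, against 3.06 to 3.52 RPM in DMSO. Without DEX-3, 5 of the 7 were called, against 58.9% of all genes. BKI1 was then called higher (adjusted p = 0.00729, limma) and SERK2 (AT1G34210) lower (adjusted p = 0.0189, limma).

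In the relay from BRI1 to BES1 and BZR1, all 9 genes in the table were called, 3 higher and 6 lower (median -0.31). Over all genes 57.7% were called, 29.6% higher and 28.1% lower. With 1 library left out, 6 to 9 of these relay genes were called. BSK1 (AT4G35230), a kinase that passes on the signal of BRI1, rose from 67.9 ± 2.50 to 137 ± 5.74 RPM (log2 change 1.004, adjusted p = 2.02e-09, limma). Its relative BSK2 (AT5G46570) fell from 37.9 ± 0.535 to 18.1 ± 2.44 RPM (log2 change -1.03, adjusted p = 4.92e-07, limma). The phosphatase gene BSL3 (AT2G27210) fell from 40.3 ± 1.64 to 25.8 ± 2.88 RPM. BIN2 (AT4G18710), the kinase that holds BES1 and BZR1 inactive, rose from 77.7 ± 1.03 to 99.1 ± 8.70 RPM (adjusted p = 0.00120, limma). Its close relative BIL1 (AT2G30980) fell from 125 ± 5.73 to 86.7 ± 17.1 RPM, with its lowest value, 66.9 RPM, in DEX-3. Another close relative, BIL2 (AT1G06390), rose like BIN2, from 58.5 ± 2.82 to 69.3 ± 4.49 RPM (adjusted p = 0.0180, limma).

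Of 9 relatives and partners of BES1 and BZR1, 4 were called higher and 3 lower (median -0.05), against 29.6% and 28.1% of all genes. MYBL2 (AT1G71030), a repressor that works with BES1 and also restrains flavonoid genes, rose from 17.5 ± 3.01 to 86.3 ± 19.9 RPM (log2 change 2.22, SE 0.149, adjusted p = 9.84e-10, limma). In single libraries MYBL2 was at 98.1, 97.5 and 63.3 RPM with DEX, the last in DEX-3. BEH4 (AT1G78700), of the BES1 family, fell from 17.6 ± 1.35 to 8.31 ± 2.28 RPM, and BIM3 (AT5G38860), related to a partner of BES1, rose from 4.47 ± 0.699 to 10.0 ± 1.76 RPM. In contrast to BES1 and BZR1, the family member BEH2 (AT4G36780) rose, from 35.5 ± 1.29 to 71.7 ± 12.3 RPM (adjusted p = 6.29e-07, limma).

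Of 10 bHLH regulators of growth downstream, 4 were in the table and 1 of these was called, lower in DEX, where 57.7% of all genes were called. The list was not divided by whether a gene promotes or restrains growth. PRE6 (AT1G26945), a growth-promoting bHLH protein, fell from 8.94 ± 0.998 to 4.87 ± 1.29 RPM (adjusted p = 0.00164, limma). PRE1 (AT5G39860) had 2.08 ± 0.537 and 3.24 ± 0.349 RPM and did not pass (adjusted p = 0.0665, limma). LOB (AT5G63090), an activator of BAS1 at organ boundaries, had 8.10 ± 0.949 and 8.52 ± 0.792 RPM, a difference of 0.07 (95% interval -0.26 to 0.40, adjusted p = 0.734, limma).

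**Figure D3:**
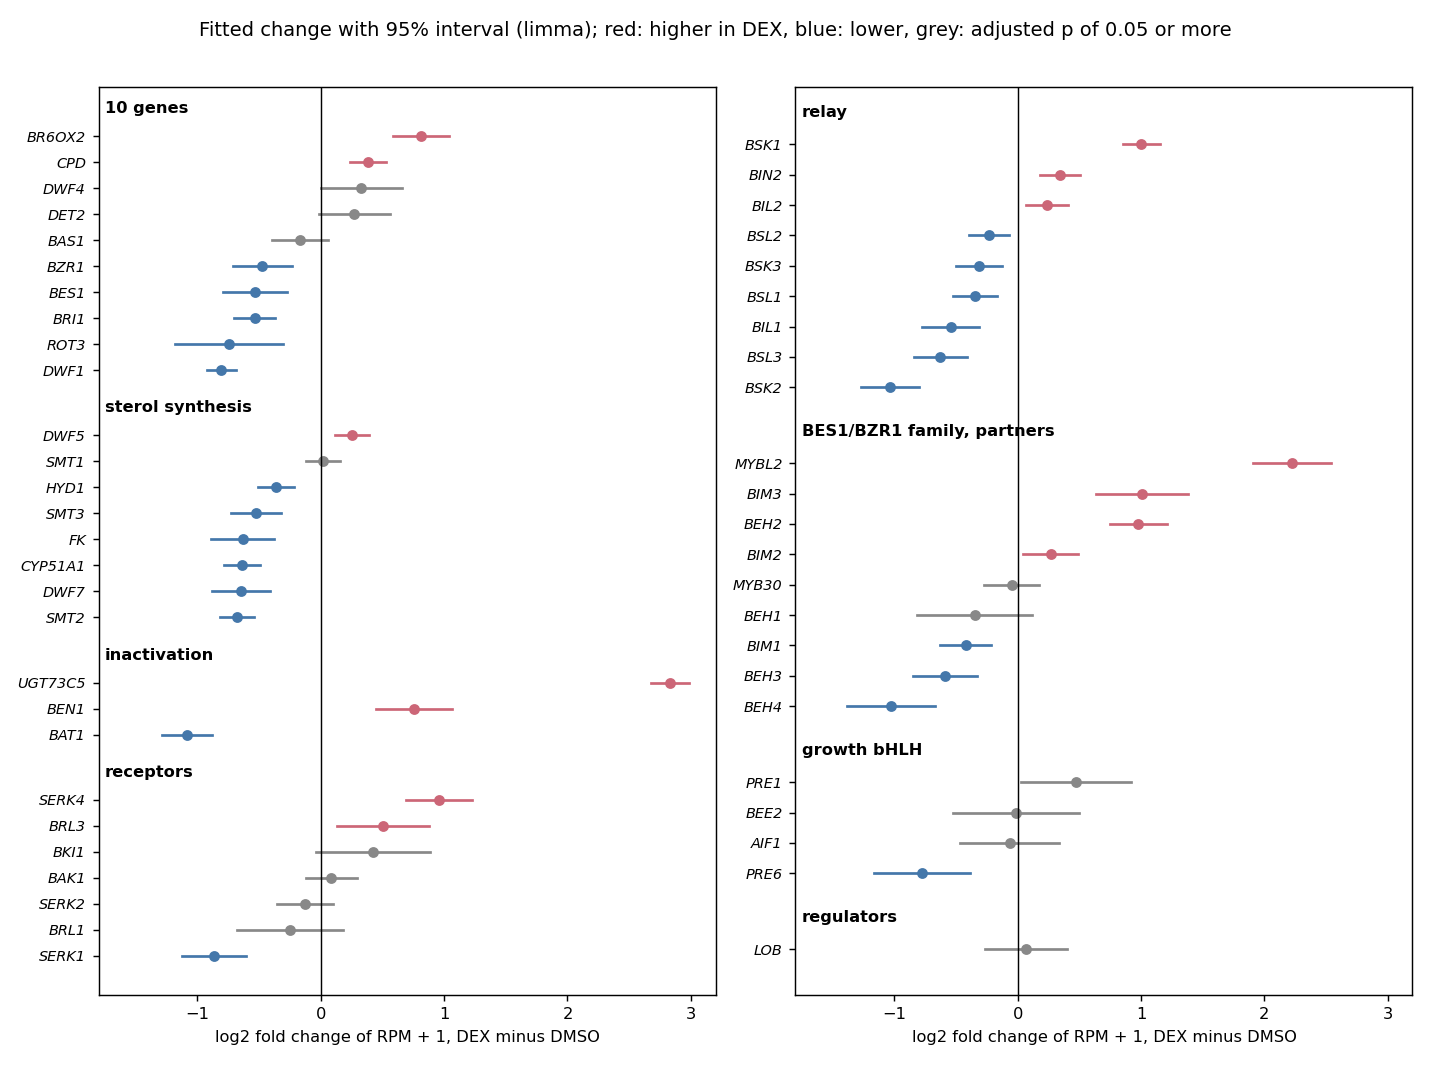
Log2 fold change of RPM + 1, DEX minus DMSO (horizontal axis), of the 10 genes and of 41 other pathway genes by role, with 95% intervals from limma (3 libraries per group). Red points are called higher, blue points lower and grey points not called. DWF1 and 6 of 8 sterol genes lie to the left of 0, while UGT73C5 at 2.83 and MYBL2 at 2.22 lie farthest to the right.

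Other markers moved with the treatment, as did many genes, with 29.6% of all genes called higher and 28.1% lower. All 9 genes of darkness and sugar shortage rose, their summed level being 189 to 197 RPM in DMSO and 2746 to 2993 RPM in DEX. Of these, ASN1 rose from 13.7 ± 0.209 to 917 ± 49.2 RPM and SEN1 from 18.1 ± 0.338 to 963 ± 90.0 RPM. Every listed gene reaches 1 RPM in 3 or more libraries. DIN9 and DIN11 did so in 0 DMSO and 3 DEX libraries, so their rise was partly set by their being listed. All 3 green tissue markers rose (sums of 7234 to 7474 and 8645 to 9316 RPM), among them RBCS1A and CAB1. Of 4 tapetum and pollen markers, A9 and AMS rose (sums of 4.02 to 4.98 and 11.1 to 12.4 RPM) and the others were not analysed here. AMS, at 0.593 ± 0.194 RPM in DMSO and 2.27 ± 0.936 RPM in DEX, reached 1 RPM in 0 DMSO and 3 DEX libraries. Its rise too was thus partly set by its being listed. Of 4 vascular markers SUC2 and APL rose and IRX3 fell (sums of 51.7 to 56.2 and 60.6 to 64.7 RPM). Their part in the changes of the brassinosteroid genes was not tested. In such bulk samples, fewer cells of a type and less RNA per cell cannot be told apart.

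Leaving out each library in turn kept the sign of all 10 genes and the calls of DWF1, CPD, BR6OX2, ROT3, BRI1, BES1 and BZR1. Without DEX-3, 9 of the 10 genes were called, against 58.9% of all genes, since DWF4 and DET2 then passed. BAS1 did not pass with any library left out.

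**Figure D4:**
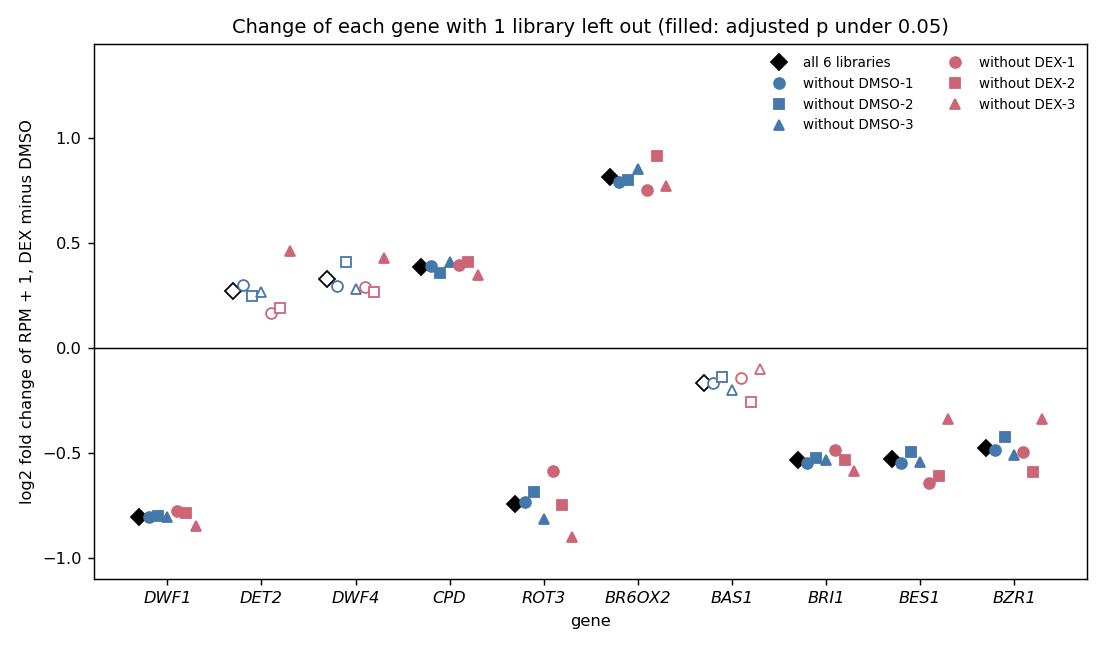
Log2 fold change of RPM + 1, DEX minus DMSO (vertical axis), of each of the 10 genes with all 6 libraries (black) and with 1 library left out (blue, a DMSO library; red, a DEX library). Filled symbols have an adjusted p under 0.05. The symbols of DET2 and DWF4 are filled only without DEX-3, and those of BES1 and BZR1 move nearest to 0 there.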

How the data were processed

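Reads were processed by the authors with TopHat and HTSeq, per the submitters' processing notes. Which versions, settings, genome build and strand mode were used is not given in the sources used here. In the deposited table the authors give RPM, scaled to 1000000 per library over 17675 listed genes. All of these reach 1 RPM in 3 or more libraries. Whole reads were recovered from the RPM (100% of values within 0.01 reads). 1 read equals 0.0691 to 0.0934 RPM.

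The two-sided test was limma 3.58.1 (R 4.3.3, intensity trend) on log2(RPM + 1), a scale that understates changes of weak genes. A gene was called at a Benjamini-Hochberg adjusted p under 0.05, taken over the whole table. The planned minimum of 1 RPM in 3 libraries removed no gene. The procedure was also run on simulated counts. There few genes changed and the spread was the same for every gene and library, unlike here. That run therefore cannot vouch for the calls. The members and lists were chosen with earlier results of these data known. Besides the 10 genes, up to 3 called genes per list by size of change are named (with none called, that of smallest p), up to 2 per marker list by level, and ARF3. SMT1, DWF5, BAK1, BKI1, SERK2, BIN2, BIL1, BIL2, BEH2, PRE1, IRX3, ANT, STM, AP3 and SEP3 were named after their values were seen. So were BIM2, BSL2, BSK3, MYB30, BEE2, AIF1, DIN9 and DIN11. Gene names are common names matched to RefSeq TAIR10.1, used with exon lengths and overlaps only, since the build of the table is not given. No sequence is printed for that reason.

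Replicate libraries differed by more than sampling noise, so each counts as 1. Whether they came from separate plants is not stated. The p-values therefore measure the spread between these libraries only, which may be technical. Alternatives were other pseudocounts and filters, median-of-ratios and TMM scaling, other limma settings, edgeR 4.0.16 and DESeq2 1.42.0 on the recovered reads, a replicate block and leaving out each library.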

Additional observations from a re-analysis of the deposited data

How the results depend on the processing

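Of the 10 genes, 7 were called under all alternatives but 2: without DEX-3, where DWF4 (0.43) and DET2 (0.46) passed and 9 were called, and with a minimum of 5 RPM, which leaves ROT3 out of the test so that 6 were called. No sign of the 10 genes turned under any alternative. With 1 library left out, 7 to 9 of the 10 genes, 25 to 31 of the 41 other pathway genes and 9072 to 10412 of all genes were called. The recovered reads gave 10146 calls with edgeR and 9691 with DESeq2, each with 7 of the 10 genes. Same-numbered libraries did not deviate together (correlations of -0.047, 0.062 and 0.029), so the replicate numbers were not taken as pairs. With the replicate block 10255 genes, 7 of the 10 and 29 of the 41 were called. BIM2 was the gene lost (adjusted p = 0.0524), and its call, at 0.0398, was also lost with DESeq2 and without any library but DMSO-1. Calls of BIL2, BSL2, BSK3 and BRL3 were each lost with 1 or more single libraries left out, and that of BIL2 also in limma without the trend. Of the receptor list 5 were called without DEX-3, against 3, and of the growth regulators 2 in limma without the trend, against 1. With a pseudocount of 5 RPM the changes of ROT3 (-0.39), BIM3 (0.66) and PRE6 (-0.50) were among those smaller by over 1.5 times. Signs turned with 1 library left out for 5 genes that were never called, over ranges of -0.018 to 0.16 for BAK1, -0.097 to 0.016 for MYB30, -0.18 to 0.078 for BEE2, -0.20 to 0.064 for AIF1 and -0.020 to 0.13 for LOB. The cause was not tested. Depth limits ROT3 most, at 19 to 72 reads per library.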
